A study of Arabidopsis thaliana with 24 samples.

Results

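The CBL calcium sensors and their CIPK protein kinases were followed across organ, ploidy and NaCl in Arabidopsis (*Arabidopsis thaliana*). They were chosen by gene identifier from the known families, with CBL4 (SOS3) and CIPK24 (SOS2) left out, which gave 34 genes, 9 CBL and 25 CIPK, of the 26405 genes listed in any library. All 34 were listed in at least 1 library. RNA-Seq was performed on roots and shoots of wild-type (Col-0) diploids and of neo-tetraploids of the same accession, obtained from earlier work, grown for 2 weeks on agar-solidified 1/4 Hoagland medium with sucrose, without added NaCl (control) or with 35 mM NaCl. The 8 groups, each combining an organ, a ploidy and a treatment, held 3 replicates each, 24 libraries in all, and every replicate was a pool of plants. The labels do not say whether the neo-tetraploid plants came from 1 line or several.

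A CBL (calcineurin B-like) protein binds calcium through EF hands and docks onto the regulatory domain of a CIPK (CBL-interacting protein kinase), which releases the kinase from its own inhibition and brings it to a membrane. CBL1 and CBL9 sit at the plasma membrane, and CBL2, CBL3 and CBL10 are known at the vacuolar membrane. The modules act on ion transporters. CBL1 or CBL9 with CIPK23 activates the potassium channel AKT1 and the high-affinity potassium transporter HAK5 and phosphorylates the nitrate transceptor NRT1.1, while CBL10 is known for salt tolerance of shoots.

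The library totals were 11202503 to 11909554 expected counts, a median of 11461800. All 14 markers of mesophyll, guard cells, root hairs, endodermis and root transport had root and shoot ranges that did not overlap, in the direction of the organ labels. For example RBCS1A, the small subunit of Rubisco, lay at 21.93 to 78.89 FPKM (reads scaled to transcript length and to the mapped reads of the library) in roots and at 9976.61 to 14495.46 in shoots. Libraries with replicate number 3 stood apart: the morning-phased clock gene CCA1 lay at 1.0 to 1.83 FPKM in their roots against 3.36 to 11.83 in replicates 1 and 2, and at 0.27 to 1.42 in their shoots against 2.77 to 27.44. The evening-phased TOC1 went the other way, 101.21 to 112.5 FPKM in the replicate 3 shoots and 22.38 to 72.42 in the others. These 2 clock genes were singled out after their values were seen, and shoot results are given with the replicate number as a block where that changes a call. Root results come from the fit without a block unless one is named, although root libraries were paired by number as well.

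Among the sensors, CBL3 (AT4G26570) and CBL9 (AT5G47100) were the most abundant in roots. CBL3 had 47.5 FPKM there as the mean of the 4 group means (42.36 to 52.98 over the 12 libraries) and CBL9 had 42.3 (30.54 to 55.33), so the pair did not differ beyond their spread. CBL2 (AT5G55990), the close relative of CBL3 at the vacuole, followed at 23.7 (17.99 to 28.22), then CBL1 (AT4G17615) at 12.5 (7.61 to 19.45) and CBL6 (AT4G16350) at 10.3 (8.76 to 13.42). In shoots the order was CBL3 at 25.7, CBL2 at 23.6, CBL10 (AT4G33000) at 20.2 and CBL1 at 17.8 FPKM, and the ranges of these neighbours overlapped. CBL9, with 8.34 FPKM (5.67 to 13.21), came below them. CBL7 (AT4G26560), CBL8 (AT1G64480) and CBL5 (AT4G01420) were scarce. CBL8 held 0 to 6 expected counts per root library, and CBL5 held none in the 12 root libraries and 1 count in each of 2 diploid NaCl shoot libraries. A single library with 0 counts allows an expected count of up to 3, and 12 such libraries together allow less per library. CBL5 was thus not detected in roots at this depth.

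The kinases spread over a wider span of levels. In roots CIPK14 (AT5G01820), CIPK6 (AT4G30960) and CIPK7 (AT3G23000) led with 115, 114 and 112 FPKM as means of group means, with library ranges of 80.52 to 162.57, 87.01 to 147.31 and 68.16 to 165.04 that did not set them apart. CIPK23 (AT1G30270), the kinase of AKT1 and HAK5, came next at 80.5 FPKM (70.78 to 89.34). With CIPK1 (AT3G17510) these 5 held 53.9% of the summed CIPK FPKM of roots. In shoots CIPK6 led at 100.3 FPKM (49.1 to 145.78), followed by CIPK9 (AT1G01140), a kinase known for growth at low potassium, at 62.9 (42.08 to 85.49). These shoot ranges overlapped, as did those of CIPK9 and of CIPK21 (AT5G57630), which acts at the vacuolar membrane under salt and had 45.6 (20.15 to 86.94). The 5 highest kinases, these 3 with CIPK1 and CIPK12 (AT4G18700), held 59.6% of the summed CIPK FPKM of shoots. The mean of the group means was 10 FPKM or more for 23 of the 34 genes in roots and for 17 in shoots, and under 1 FPKM for 4 and 8.

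**Figure D1:**
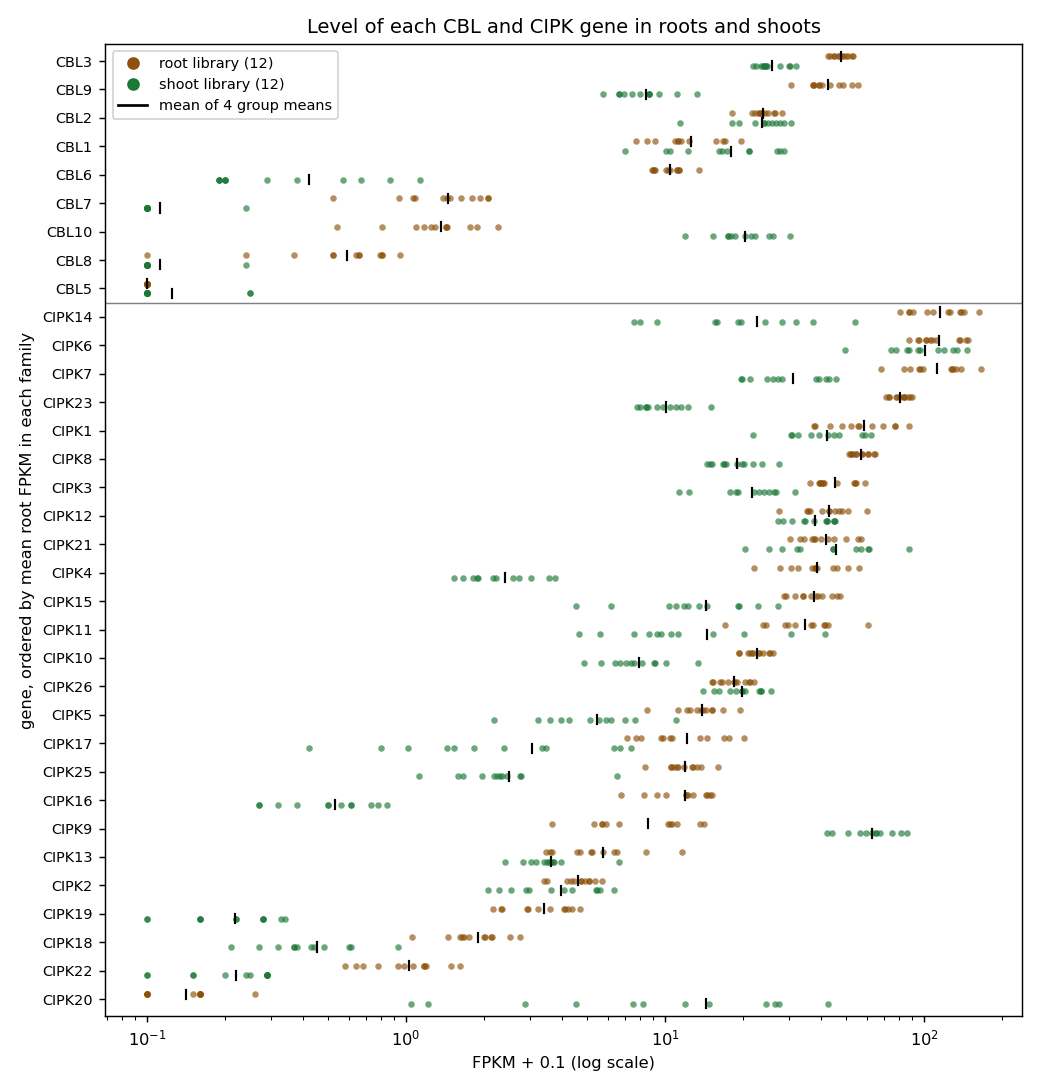
Level of each CBL (top) and CIPK (bottom) gene as FPKM + 0.1 on a log axis, in the 12 root (brown) and 12 shoot (green) libraries, with the mean of the 4 group means as a black bar. CBL10, CIPK9 and CIPK20 have root and shoot points that do not overlap with shoots higher, and CBL9, CIPK23, CIPK4 and CIPK16 are examples with roots higher.

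Most members differed between organs. A gene was tested if 3 or more of the 24 libraries held 10 or more counts of it, which 32 members met and CBL5 and CBL8 did not. Of the 32, 20 were called higher in roots and 9 higher in shoots, at an adjusted p under 0.05 over all genes with edgeR's quasi-likelihood test. Organ is the main difference of this experiment, since 42.9% of all genes tested were called higher in roots and 39.2% higher in shoots, 82.0% together, so the 29 members called do not set the family apart. The median log2 fold change, root minus shoot, was 0.86 over the 32 members and 0.04 over all genes. The FPKM ranges of the 12 root and the 12 shoot libraries did not overlap for 20 of the 32. That share was not counted over all genes, so it cannot be read as a trait of the family. In such bulk samples fewer cells of a type and less RNA per cell cannot be told apart.

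The shoot genes were led by CIPK20 (AT5G45820). It had 0 to 3 expected counts in every root library and 17 to 756 in the shoot libraries, 9 counts against 3086 in all, a ratio of 342 per sequenced count (95% exact interval 180 to 748, for counting error only). CBL10 had 0.44 to 2.17 FPKM in roots and 11.78 to 30.32 in shoots, a log2 fold change of -4.55 (SE 0.16, adjusted p = 2.52e-16). CIPK9 had 3.54 to 14.02 FPKM in roots and 42.08 to 85.49 in shoots, -3.54 on the log2 scale (SE 0.11, adjusted p = 3.81e-17). None of these 3 genes had overlapping organs. CBL1 lay at -1.06 (SE 0.18) and CIPK21 at -0.69 (SE 0.19), both with overlapping ranges.

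The root genes were led by the sensors CBL7 and CBL6. CBL7 had 116 counts over the 12 root libraries and 1 over the 12 shoot libraries, a ratio of 116 per sequenced count (95% exact interval 20.5 to 4630). Such ratios were scaled by the library totals only, unlike the log2 fold changes, where CBL7 lay at 5.45. CBL6 had 8.76 to 13.42 FPKM in roots and 0.09 to 1.03 in shoots, a log2 fold change of 4.79 (SE 0.17, adjusted p = 2.5e-16). Of the kinases, CIPK19 (AT5G45810), known from pollen tube growth, had 664 counts in roots and 24 in shoots, a ratio of 27.7 per sequenced count (18.5 to 43.6). CIPK16 (AT2G25090), which interacts with AKT1 in the literature on salt and potassium, had 6.64 to 15.09 FPKM in roots and 0.17 to 0.74 in shoots, 4.19 on the log2 scale (SE 0.20, adjusted p = 4.47e-14). CIPK4 (AT4G14580) had 21.93 to 56.08 and 1.43 to 3.65 FPKM, 3.49 on the log2 scale (SE 0.15). CIPK23 had 70.78 to 89.34 FPKM in roots and 7.7 to 14.87 in shoots, 2.48 on the log2 scale (SE 0.08, adjusted p = 7.28e-17), and these 3 kinases too had no overlap between organs. The other 14 members called higher in roots lay at 0.34 (CBL3) to 2.46 (CIPK22, AT2G38490). Among them were CIPK14 at 1.86 (SE 0.25), CIPK25 (AT5G25110) at 1.80 (SE 0.17), CIPK18 (AT1G29230) at 1.87 (SE 0.20), CIPK17 at 1.68 (SE 0.26) and CIPK8 at 1.04 (SE 0.09), with CIPK7, CBL9, CIPK3, CIPK5 (AT5G10930), CIPK10, CIPK11 and CIPK15 between the ends. The remaining shoot genes were CBL2 at -0.53 (SE 0.10), CIPK26 (AT5G21326), which acts on the NADPH oxidase RBOHF, at -0.65 (SE 0.08), CIPK12 and CIPK6. CIPK1 (-0.07), CIPK2 (-0.28) and CIPK13 (0.10) were not called.

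Some of these genes lie next to each other. In the TAIR10.1 gene order CIPK19 and CIPK20 are neighbouring protein-coding genes on chromosome 5, and CIPK19 was the root gene and CIPK20 the shoot gene. CBL7 and CBL3 are neighbours on chromosome 4, and CIPK15 (AT5G01810) and CIPK14 on chromosome 5. Both members of these pairs were called higher in roots, by 5.45 and 0.34 for CBL7 and CBL3 and by 0.88 and 1.86 for CIPK15 and CIPK14 on the log2 scale.

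The organ call of the weaker shoot genes depended on the scaling. The trimmed mean of M values (TMM) put the median gene at 0.04 between organs, whereas scaling by the library total alone put it at 0.59, and the share of called genes that were higher in roots went from 52.3% to 72.7%. Relative to the library total, 22 members were called higher in roots and 4 higher in shoots (CIPK20, CBL10, CIPK9 and CBL1). CBL2, CIPK6 and CIPK12 changed sign, and CIPK21 (-0.15, adjusted p = 0.46) and CIPK26 lost their call while CIPK1 and CIPK13 gained a call for roots. CIPK6 thus had a lower mean FPKM in shoots than in roots, since FPKM is relative to the library total, and a TMM-scaled log2 fold change of -0.38 (SE 0.14, adjusted p = 0.0188).

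**Figure D2:**
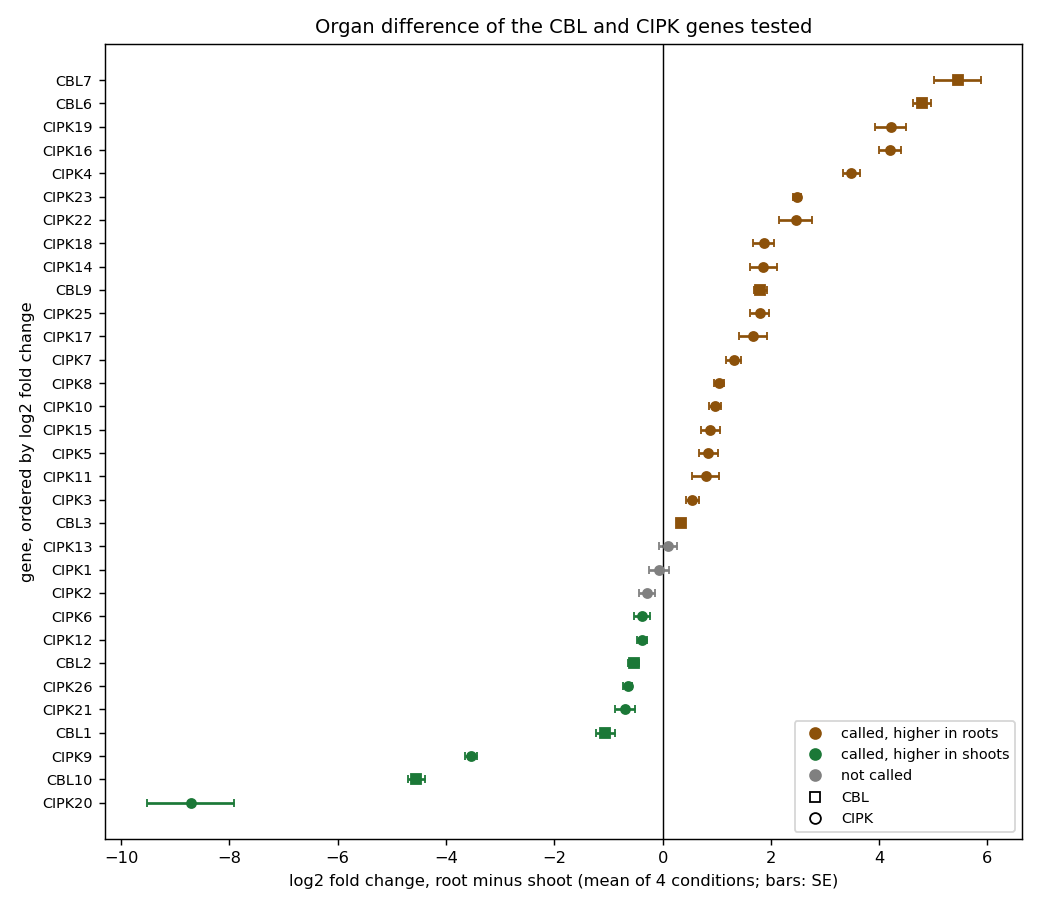
Log2 fold change between roots and shoots (root minus shoot, TMM scaling, mean of the 4 conditions, bars are SE) of the 32 genes tested, squares for CBL and circles for CIPK. The 20 brown symbols are higher in roots, the 9 green ones higher in shoots, and CIPK13, CIPK1 and CIPK2 in grey were not called.

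CBL1 and CBL9, plasma membrane sensors that both serve CIPK23 and CIPK1, had opposite organ patterns. In roots CBL1 made up 16.3% ± 1.4 (SD, n = 3) of the summed CBL1 and CBL9 FPKM in diploid controls, 22.5% ± 2.5 in diploids with NaCl, 30.2% ± 1.0 in neo-tetraploid controls and 22.3% ± 4.2 in neo-tetraploids with NaCl. In shoots the share was 60.1% ± 11.6, 69.4% ± 9.5, 66.0% ± 11.9 and 69.0% ± 9.9 in the same order. CBL9 was higher in roots by 1.81 on the log2 scale (SE 0.12, adjusted p = 7.63e-12), with no overlap of the organs.

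CBL1 was the member called between the ploidies by edgeR without a block. With the replicate number as a block more members were called in roots, 6 over both treatments, as counted below. In control roots it had 7.61, 8.37 and 11.07 FPKM in the diploids and 16.64, 16.86 and 19.45 in the neo-tetraploids, with no overlap. The log2 fold change, neo-tetraploid minus diploid, was 1.03 (SE 0.19, adjusted p = 0.0146). With NaCl the diploid roots had 12.29, 11.45 and 10.8 FPKM and the neo-tetraploid roots 11.12, 9.03 and 15.59, which overlapped, at 0.13 (SE 0.19, adjusted p = 0.772). The difference between these ploidy effects was -0.89 (SE 0.27, unadjusted p = 0.00568, adjusted p = 0.666), so it was not called. The control-root call rested on few libraries: the adjusted p was 0.0805 without diploid control replicate 1, 0.063 without diploid control replicate 2, 0.0607 without neo-tetraploid control replicate 2 and 0.0709 without neo-tetraploid control replicate 3, with log2 fold changes of 0.90 to 1.18 over the 12 such fits. Over both treatments CBL1 lay at 0.58 (SE 0.14, adjusted p = 0.0272), and 6 of the 12 fits with a library left out lost that call (adjusted p up to 0.0737), as did leaving out all replicate 3 libraries (0.48, adjusted p = 0.0944) and limma on FPKM (0.46, adjusted p = 0.0531). The 6 libraries were diploid control replicate 1, diploid NaCl replicates 2 and 3, neo-tetraploid control replicates 2 and 3 and neo-tetraploid NaCl replicate 3. The count of members called over both treatments was 5 without diploid control replicate 2 and 2 without neo-tetraploid NaCl replicate 1, and in control roots it was 2 without neo-tetraploid NaCl replicate 3.

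**Figure D3:**
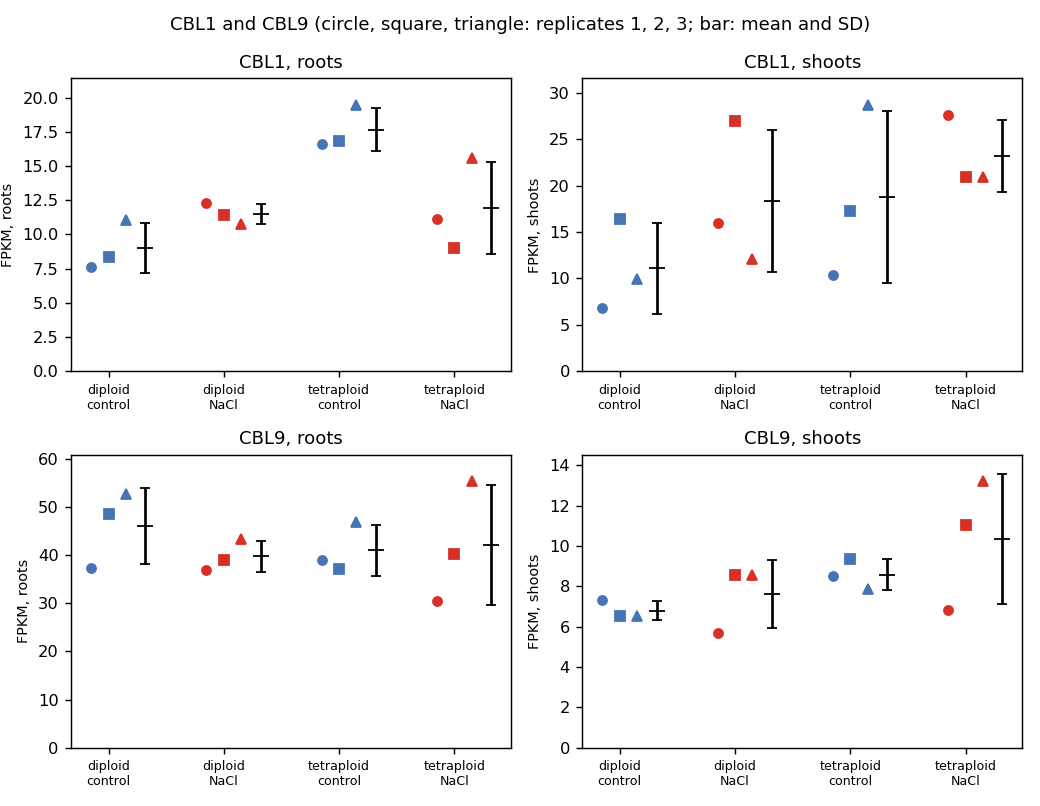
FPKM of CBL1 (top) and CBL9 (bottom) in roots (left) and shoots (right) of each group, blue for control and red for 35 mM NaCl, with the mean and SD of 3 replicates. In control roots the neo-tetraploid CBL1 values of 16.64 to 19.45 lie above the diploid values of 7.61 to 11.07, and CBL9 overlaps between the ploidies in every treatment of roots.

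No other member was called between the ploidies by edgeR without a block. DESeq2 called 2 members in control roots (804 of all 20239 genes) and 3 over both treatments of roots (1530 of all genes). With the replicate number as a block edgeR called 3 members in control roots, 1 in NaCl roots and 6 over both treatments, all 6 higher. That fit called 1100, 356 and 2176 of all 20239 genes in the same order. Without the block CBL1 was 1 of 31 tested in control roots, where 2.31% of all genes were called, and 1 of 31 over both treatments (5.05% of all genes). The median log2 fold change in control roots was 0.16 over the 31 members and -0.01 over all genes. Scaling by the library total kept the single call of CBL1 in both and put 52.1% in place of 77.2% of the called genes higher in neo-tetraploids over both treatments. In NaCl roots 0 of 31 were called without the block (0.252% of all genes). At an unadjusted p under 0.05 there were 3 of the 31 and 3015 of all 20239 genes. DESeq2 and limma also called 0 members there, beside 337 of 20239 and 17 of 20036 genes. In shoots 27 members were tested, and edgeR called 0 in controls (0.0104% of all genes), in NaCl shoots (0.0104%) or over both treatments (0.0261%). At an unadjusted p under 0.05 it found 0 in each, beside 1741, 746 and 1917 of all 19174 genes. DESeq2 also called 0 in each, beside 81, 14 and 78 of all genes. Limma called 0 in each, beside 2, 2 and 4 of 18723 genes. With the replicate number as a block, which pairs the shoot libraries, 0 of the 27 were called over both treatments, beside 0.183% of all genes. At an unadjusted p under 0.05 that fit found 5 of the 27 and 3579 of all 19174 genes. The shoot spread was wide: CBL1 in control shoots had 6.87, 16.45 and 9.93 FPKM in diploids and 10.32, 17.21 and 28.66 in neo-tetraploids, 0.76 on the log2 scale (SE 0.43, adjusted p = 0.634). The nearest kinase in control roots was CIPK11 (AT2G30360), which inhibits the plasma membrane proton pump AHA2, with 23.78, 24.39 and 16.86 FPKM in diploids and 31.53, 41.11 and 36.46 in neo-tetraploids. These did not overlap, at 0.80 on the log2 scale (SE 0.24, adjusted p = 0.11). The difference of the ploidy effect between organs gave 0 calls among 32 members with edgeR (0.00469% of all genes). DESeq2 (64 of 21338 genes) and limma (20 of 21276 genes) also called 0 members. At an unadjusted p under 0.05 edgeR found 1 of the 32 and 1560 of all 21338 genes.

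CIPK9 rose in roots with NaCl. Diploid control roots had 5.8, 5.2 and 3.54 FPKM and diploid NaCl roots 10.14, 10.96 and 10.48. The neo-tetraploids had 6.54, 5.61 and 5.62 without NaCl and 10.32, 14.02 and 13.53 with it. In both ploidies every NaCl library was above every control library. The log2 fold change was 1.04 in diploids (SE 0.17, adjusted p = 0.00362) and 1.03 in neo-tetraploids (SE 0.17, adjusted p = 0.0043) and 1.03 over both (SE 0.12, adjusted p = 0.000129). All of the 12 fits that each left out a root library kept these calls, at 0.95 to 1.11 over both ploidies. In shoots, where CIPK9 stood higher, the values were 42.08, 64.8 and 43.88 without and 62.99, 85.49 and 56.27 with NaCl in diploids, and 50.49, 59.24 and 67.37 without and 81.27, 65.15 and 75.21 with it in neo-tetraploids. The treatments overlapped, while the NaCl library was higher within every replicate number of both ploidies. The log2 fold change over both was 0.39 (SE 0.16, adjusted p = 0.153), and with the replicate number as a block it was 0.40 (SE 0.13, adjusted p = 0.0669). The difference of the NaCl effect between organs was 0.64 (SE 0.21, adjusted p = 0.0717). With the block it was called for CIPK9 (0.64, SE 0.19, adjusted p = 0.0422) and for CIPK7 (0.79, SE 0.16, adjusted p = 0.00712). In that comparison edgeR without a block called 0 of 32 members (5.13% of all genes). At an unadjusted p under 0.05 it found 5 of the 32 and 4765 of all 21338 genes. DESeq2 called 2 members, beside 1833 of 21338 genes, and limma 1, beside 1779 of 21276 genes. Scaling by the library total called CIPK9 there and put 65.8% in place of 52.7% of the called genes higher.

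CIPK17 (AT1G48260) fell most. Diploid roots had 13.55, 16.71 and 10.34 FPKM without NaCl and 6.99, 7.99 and 7.58 with it. Neo-tetraploid roots had 17.51, 20.09 and 14.38 without NaCl and 9.74, 9.53 and 10.51 with it. Neither ploidy overlapped between treatments, and the log2 fold change was -0.93 in diploids (SE 0.18, adjusted p = 0.00672) and -0.86 in neo-tetraploids (SE 0.17, adjusted p = 0.0119). The neo-tetraploid call was lost without neo-tetraploid control replicate 2 (-0.73, adjusted p = 0.0579) and without neo-tetraploid NaCl replicate 2 (-0.82, adjusted p = 0.0657). Over both ploidies it was -0.89 (SE 0.12, adjusted p = 0.000367), and all 12 fits with a library left out kept it.

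CIPK15, a kinase that binds the ABA phosphatases ABI1 and ABI2 and phosphorylates the ammonium transporter AMT1;1, fell in both ploidies. Its roots had 47.29, 43.91 and 40.12 FPKM in diploid controls and 36.42, 31.48 and 33.99 with NaCl, and 45.77, 38.21 and 38.94 in neo-tetraploid controls and 33.88, 28.56 and 29.04 with NaCl. Neither ploidy overlapped between treatments, at -0.44 (SE 0.11, adjusted p = 0.0263) and -0.48 (SE 0.11, adjusted p = 0.0233). Over both ploidies it was -0.46 (SE 0.08, adjusted p = 0.00162). Each ploidy's own call was lost in 4 of the 12 fits with a library left out (adjusted p up to 0.106 in diploids, without NaCl replicate 2, and up to 0.12 in neo-tetraploids, without NaCl replicate 2). The other libraries were diploid control replicates 1 and 2, diploid NaCl replicate 3, neo-tetraploid control replicates 1 and 3 and neo-tetraploid NaCl replicate 3. Scaling by the library total (-0.37, adjusted p = 0.051), limma on FPKM (-0.36, adjusted p = 0.0553) and leaving out all replicate 3 libraries (-0.53, adjusted p = 0.0668) ended the diploid call, and the last also the neo-tetraploid call (-0.49, adjusted p = 0.105). The call over both ploidies held in all 12. CIPK14, the neighbouring gene, lay at 0.02 over both ploidies (SE 0.15, adjusted p = 0.948).

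CIPK21 fell in diploid roots. It had 55.45, 49.78 and 56.85 FPKM in controls and 37.74, 32.97 and 39.89 with NaCl, which did not overlap, at -0.63 (SE 0.14, adjusted p = 0.0133). The call was lost without diploid NaCl replicate 2 (-0.53, adjusted p = 0.0631) and without all replicate 3 libraries (-0.68, adjusted p = 0.0537). The neo-tetraploids had 44.89, 37.28 and 36.82 in controls and 42.27, 30.27 and 34.23 with NaCl, which overlapped, at -0.21 (SE 0.14, adjusted p = 0.416). The difference between the ploidies was 0.42 (SE 0.19, unadjusted p = 0.0486, adjusted p = 0.797) and was not called. Over both ploidies the value was -0.42 (SE 0.10, adjusted p = 0.00846), and all 12 fits with a library left out kept it.

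CIPK6, a kinase of the phloem potassium channel AKT2, rose in diploid roots. It had 101.02, 95.67 and 87.01 FPKM in controls and 136.23, 136.84 and 145.01 with NaCl, with no overlap, at 0.48 (SE 0.14, adjusted p = 0.0492). In the neo-tetraploids 101.12, 105.02 and 107.07 stood against 94.28, 110.71 and 147.31, which overlapped, at 0.12 (SE 0.14, adjusted p = 0.704). The diploid call lay at the threshold: it held in 2 of the 12 fits with a library left out, those without neo-tetraploid NaCl replicate 1 or 3, and the adjusted p ran from 0.0112 to 0.148. It was 0.0581 with no filter on low counts and 0.116 without all replicate 3 libraries. The difference between the ploidies was -0.36 (SE 0.20, adjusted p = 0.822).

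**Figure D4:**
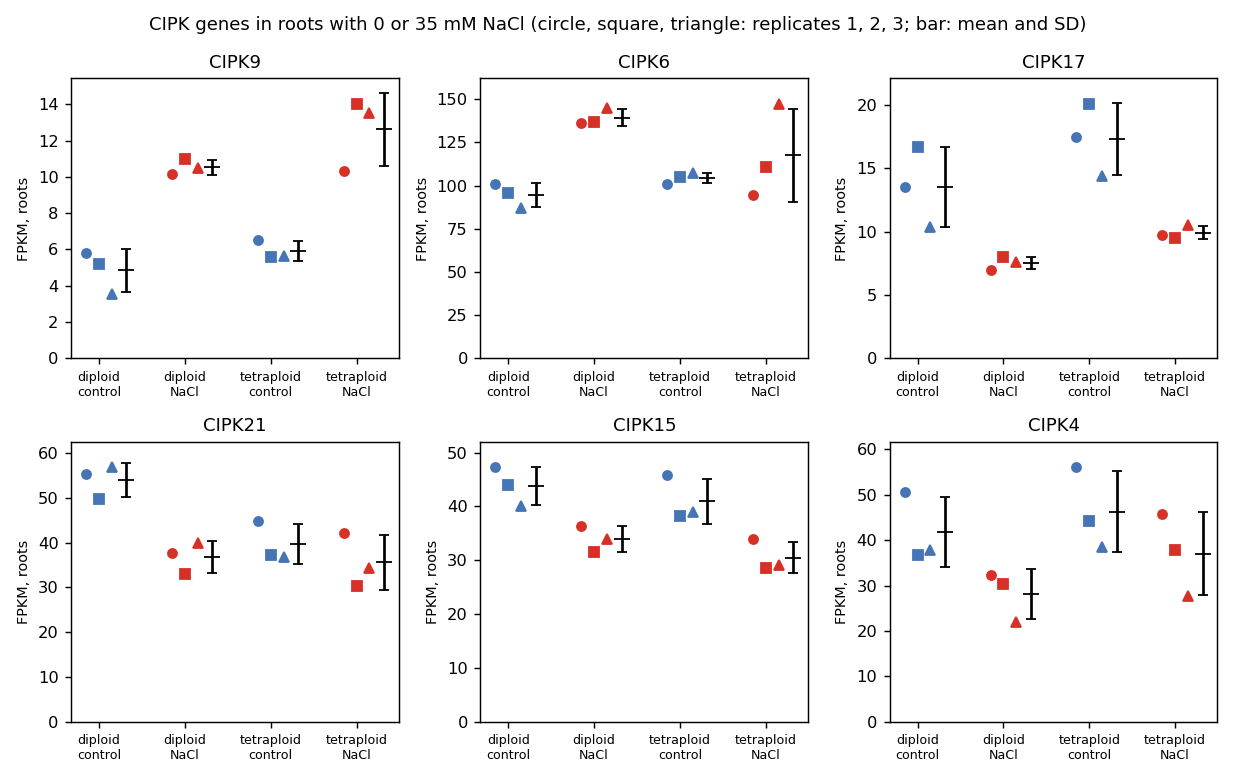
FPKM of 6 CIPK genes in the root libraries of each group, blue for control and red for 35 mM NaCl, with the mean and SD of 3 replicates. CIPK9 rises from 3.54 to 6.54 without NaCl to 10.14 to 14.02 with it, CIPK17 and CIPK15 fall in both ploidies, CIPK21 falls in diploids, CIPK6 is higher in the diploid NaCl libraries, and CIPK4 is lower with NaCl over both ploidies.

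Counted together, 5 of 31 members were called in diploid roots, 2 higher (3.51% of all genes) and 3 lower (6.13%). In neo-tetraploid roots 3 of 31 were called, 1 higher (2.2%) and 2 lower (4.36%), and over both ploidies 8 of 31, 1 higher (7.4%) and 7 lower (11.6%). The median log2 fold change over both ploidies was -0.08 for the 31 members and 0.01 for all genes. With the replicate number as a block 6 members were called in diploid roots, 7 in neo-tetraploid roots and 12 over both ploidies. That fit called 3311, 2376 and 5186 of all 20239 genes in the same order. Scaling by the library total, which put the median gene at 0.08, gave 3 members higher (CIPK9, CIPK6 and CIPK11) and 4 lower (CIPK17, CIPK4, CIPK15 and CIPK21) over both ploidies, and 56.8% of called genes higher in place of 39.0%. In diploid roots that share was 55.6% in place of 36.4%, and in neo-tetraploid roots 44.8% in place of 33.6%. The count was 5 without each of diploid control replicate 1, diploid NaCl replicates 1, 2 and 3, neo-tetraploid control replicate 2 and neo-tetraploid NaCl replicate 2, and 4 without neo-tetraploid control replicate 1. In diploid roots it was 3 without control replicate 1 or 2 or NaCl replicate 3, and 2 without NaCl replicate 2. In neo-tetraploid roots it was 1 without NaCl replicate 2.

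The remaining calls over both ploidies were small. CIPK4 had 50.68, 36.81 and 37.9 FPKM in diploid controls, 32.35, 30.36 and 21.93 with NaCl, 56.08, 44.27 and 38.48 in neo-tetraploid controls and 45.81, 37.75 and 27.6 with NaCl, at -0.51 (SE 0.14, adjusted p = 0.0213). The diploid treatments did not overlap and the neo-tetraploid ones did. Its call was lost without neo-tetraploid control replicate 1 (-0.42, adjusted p = 0.0546) and with limma on FPKM (-0.44, adjusted p = 0.0511). The vacuolar sensor CBL2 had 22.16 to 28.22 FPKM in controls and 17.99 to 23.51 with NaCl, -0.27 (SE 0.08, adjusted p = 0.0324). The root sensor CBL6 lay at -0.30 (SE 0.10, adjusted p = 0.049), with 10.16 to 13.42 FPKM in controls and 8.76 to 11.24 with NaCl. CIPK8 (AT4G24400), a kinase of the early nitrate response, lay at -0.21 (SE 0.07, adjusted p = 0.0479), with 51.29 to 64.34 and 51.98 to 57.18 FPKM. All 3 ranges overlapped. Their calls held in 5, 1 and 1 of the 12 fits with a library left out, and the adjusted p reached 0.0922, 0.123 and 0.124. Scaling by the library total and limma ended all 3 calls, at an adjusted p of 0.0938 and 0.0906 for CBL2, 0.107 and 0.0728 for CBL6 and 0.144 and 0.148 for CIPK8. For CBL6 and CBL2 leaving out all replicate 3 libraries ended the call as well (adjusted p = 0.168 and 0.0784). The call of CBL6 held without neo-tetraploid NaCl replicate 1 and that of CIPK8 without diploid control replicate 3, while that of CBL2 held without diploid control replicate 2 or 3, neo-tetraploid control replicate 3 or neo-tetraploid NaCl replicate 1 or 3. CIPK23, the kinase of AKT1 and HAK5, lay at -0.08 (SE 0.08, adjusted p = 0.531), and CBL9 at -0.15 (SE 0.14, adjusted p = 0.479).

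CIPK genes fall into an intron-rich and an intron-poor class. By the TAIR10.1 annotation 8 of the 25 (CIPK1, CIPK3, CIPK8, CIPK9, CIPK17, CIPK21, CIPK23 and CIPK26) have 7 to 14 introns in their transcripts and 17 have 0 to 3. With NaCl in roots over both ploidies 4 of the 8 intron-rich kinases were called (CIPK8, CIPK9, CIPK17 and CIPK21). Of the 16 intron-poor ones tested 2 were called (CIPK4 and CIPK15). This is a description of the list with no test, beside 7.4% of all genes called higher and 11.6% lower. It depended on the setting: the call of CIPK8 held in 1 of the 12 fits with a library left out. With scaling by the library total CIPK8 was not called, while the intron-poor CIPK6 and CIPK11 were. The intron-rich kinases had root means of 8.48 to 80.5 FPKM, whereas the intron-poor ones ran from 0.042 to 115.

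The NaCl effect did not differ between the ploidies by a call for any member in roots (0 of 31) or in shoots (0 of 27). This held with edgeR (0.0% of all genes in both organs), DESeq2 (15 and 2 genes) and limma (1 and 0 genes). At an unadjusted p under 0.05 edgeR found 2 of the 31 members in roots, beside 1259 of 20239 genes. In shoots it found 0 of the 27 at that p, beside 558 of 19174 genes.

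In shoots 0 of 27 members were called with NaCl in diploids (0.0% of all genes), in neo-tetraploids (0.0104%) or over both (5.03%) without a block. At an unadjusted p under 0.05 that fit found 4, 3 and 7 of the 27. Over all 19174 genes these counts were 3376, 2368 and 4932. DESeq2 called 0, 0 and 2 members, beside 782, 359 and 2287 of 19174 genes. Limma called 0, 0 and 0, beside 10, 4 and 452 of 18723 genes. Shoot libraries that shared a replicate number deviated together from their group means, so the fit with the replicate number as a block is given beside. In it 3 members were called lower in diploid shoots (3.94% of all genes), 1 in neo-tetraploid shoots (1.05%) and 5 over both ploidies (9.84%).

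The lead gene there was CIPK20, the shoot kinase, which is described in ABA responses. Diploid shoots had 42.2, 27.38 and 4.43 FPKM in control replicates 1, 2 and 3 and 8.08, 14.66 and 1.11 in the NaCl replicates of the same numbers. Neo-tetraploid shoots had 26.37, 24.48 and 2.78 without NaCl and 7.42, 11.83 and 0.94 with it. Within every number of both ploidies the NaCl library was lower, while over all numbers the treatments overlapped. With the block the log2 fold change was -1.66 in diploids (SE 0.28, adjusted p = 0.017), -1.48 in neo-tetraploids (SE 0.28, adjusted p = 0.0384) and -1.57 over both (SE 0.20, adjusted p = 0.00238). Without it the value over both was -1.48 (SE 0.80, adjusted p = 0.267).

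The other blocked calls over both ploidies were smaller or rested on fewer counts. CIPK17 had 6.25, 7.31 and 2.29 FPKM in diploid controls and 3.24, 0.7 and 0.92 with NaCl, and 6.61, 3.36 and 1.43 in neo-tetraploid controls and 1.72, 0.32 and 1.34 with NaCl. Every number was lower with NaCl, at -1.72 with the block (SE 0.39, adjusted p = 0.0185) and -1.72 without it (SE 0.53, adjusted p = 0.0813). CIPK14 had 53.77, 37.19 and 15.48 FPKM in diploid controls and 19.05, 19.45 and 7.91 with NaCl, and 31.83, 24.13 and 9.23 in neo-tetraploid controls and 15.71, 28.09 and 7.47 with NaCl. It lay at -0.74 over both ploidies (SE 0.16, adjusted p = 0.016) and -1.10 in diploids (SE 0.23, adjusted p = 0.028), and neo-tetraploid replicate 2 went the other way. CIPK7, a partner of CBL1 in cold responses, had 45.35, 42.83 and 26.06 FPKM in diploid controls and 19.7, 24.52 and 19.5 with NaCl, and 41.63, 38.22 and 28.21 in neo-tetraploid controls and 21.06, 39.18 and 27.1 with NaCl. The diploid treatments did not overlap and the neo-tetraploid ones did. It lay at -0.56 over both ploidies (SE 0.14, adjusted p = 0.0234) and -0.76 in diploids (SE 0.19, adjusted p = 0.0478). CIPK3 (AT2G26980), known from ABA and cold responses, had 18.74, 22.87 and 26.78 FPKM in diploid controls and 17.67, 12.27 and 25.09 with NaCl, and 31.62, 21.89 and 26.23 in neo-tetraploid controls and 19.07, 11.17 and 24.02 with NaCl. Every number was lower with NaCl and the treatments overlapped, at -0.49 (SE 0.14, adjusted p = 0.043). The salt sensor of shoots, CBL10, had 25.99, 30.32 and 18.47 FPKM in diploid controls and 22.1, 15.13 and 21.31 with NaCl, and 24.97, 17.44 and 17.38 in neo-tetraploid controls and 17.89, 11.78 and 20.18 with NaCl. These overlapped, and CBL10 lay at -0.31 over both ploidies with the block (SE 0.15, adjusted p = 0.181).

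**Figure D5:**
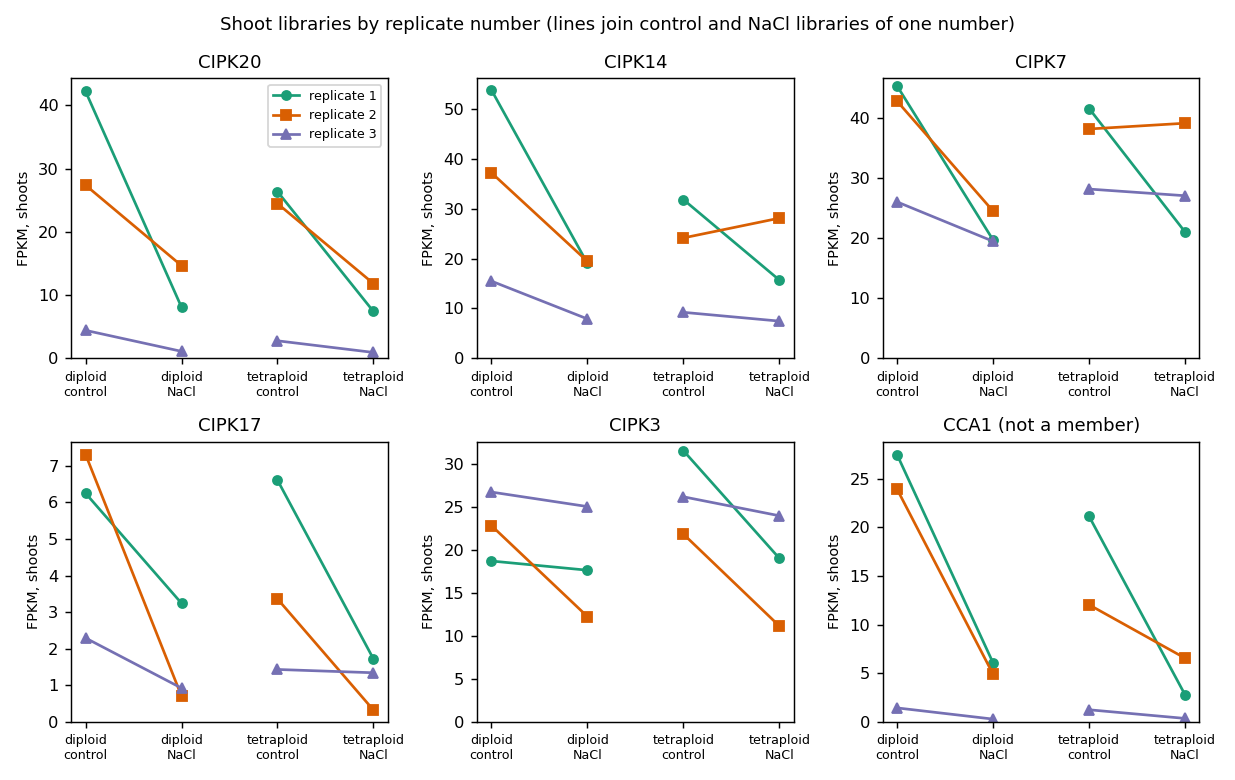
FPKM of 5 CIPK genes and of the clock gene CCA1 in shoot libraries, with lines joining the control and NaCl libraries of the same replicate number and ploidy. CIPK20 falls along all 6 lines, and its 4 replicate 3 libraries, at 0.94 to 4.43, lie below all others, as they do for CCA1.

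Replicate number itself moved several members. In shoots 5 of 27 members differed with it (11.0% of all genes) and in roots 8 of 31 (5.29% of all genes), from a test on 2 degrees of freedom with the groups in the model. CIPK20 was lower in replicate 3 than in replicate 1 by a log2 fold change of -3.13 and CIPK14 by -1.57 (adjusted p = 0.000626 and 0.00343), and both had their lowest value in replicate 3 in all 4 shoot groups. CIPK1 lay at -0.76 in shoots (adjusted p = 0.0448) and at 0.56 in roots (adjusted p = 0.0283), where replicate 3 was the highest in all 4 groups. CIPK7 lay at -0.54 in roots (adjusted p = 0.00363), the lowest of each group. CCA1 moved alongside, by -4.05 in shoots and -2.05 in roots. The control and NaCl shoots differed in CCA1 too, at 12.03 to 27.44 and 2.77 to 6.54 FPKM in replicates 1 and 2 and at 1.23 to 1.42 and 0.27 to 0.34 in replicate 3. The part of the clock in the shoot calls was not tested.

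Genes on which the modules act were read beside them. Of 27 known partners and targets, 9 were called in roots with NaCl over both ploidies, 2 higher (7.4% of all genes) and 7 lower (11.6%), a median of -0.02. In diploid roots 6 were called, all lower (6.13% of all genes), and in neo-tetraploid roots 1, HAK5, which was higher (2.2% of all genes). HAK5, the high-affinity potassium transporter activated by CIPK23, rose by 2.17 on the log2 scale over both ploidies (SE 0.42, adjusted p = 0.0034), with 1.58 in diploids (adjusted p = 0.127) and 2.75 in neo-tetraploids (adjusted p = 0.0142). ABI2, the ABA phosphatase, rose by 0.60 (SE 0.16, adjusted p = 0.0182). Over both ploidies the ammonium transporters AMT1;2, AMT1;1 and AMT1;3 lay at -1.22 (SE 0.17), -0.82 (SE 0.12) and -0.48 (SE 0.16). In diploids all 3 were called, at -1.75, -1.07 and -0.96 (adjusted p = 0.00102, 0.00248 and 0.02). In neo-tetraploids the values were -0.69, -0.56 and -0.00 (adjusted p = 0.0991, 0.0624 and 0.996). The difference between the ploidies was not called for any of the 3 (adjusted p = 0.666, 0.797 and 0.672). The anion channel SLAC1 lay at -0.83 (SE 0.25), the iron regulator FIT at -0.68 (SE 0.13), the NADPH oxidase RBOHF at -0.40 (SE 0.08) and the proton pump AHA2 at -0.36 (SE 0.11). Between the ploidies 0 of 27 partners were called in control roots (2.31% of all genes), NaCl roots (0.252%) or over both treatments (5.05%) without a block. HAK5 lay at 0.72, 1.89 and 1.30, neo-tetraploid minus diploid (adjusted p = 0.677, 0.172 and 0.0945). With the block 0, 2 and 2 partners were called, all higher in neo-tetraploids, beside 1100, 356 and 2176 of all genes. In NaCl roots and over both treatments 1 of the 2 had a fold of 2 or more. The largest blocked log2 fold changes of the partners were 1.82 and 1.275 there. Without the block HAK5 alone among the partners exceeded that fold in these 2 comparisons. In shoots 1 of 25 partners was called with NaCl over both ploidies without a block (5.03% of all genes), NRT1.1 at -0.84 (SE 0.14, adjusted p = 0.0183). With the block 5 were called, 4 higher (1545 of all 19174 genes) and 1 lower (1886 of all genes).

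The calcium-dependent protein kinases (CPK), which join sensor and kinase in 1 protein, served as a like family. Of 28 CPK genes tested in roots, 7 were called with NaCl over both ploidies, all lower (median -0.12 on the log2 scale), against 7 lower and 1 higher of the 31 CBL and CIPK genes and 11.6% of all genes lower. In control roots 4 of 28 CPK genes were called higher in neo-tetraploids, against 1 of 31 here and 2.31% of all genes in either direction. Organ was called for 23 of 28 CPK genes, 29 of 32 CBL and CIPK genes and 82.0% of all genes. The difference between the families was not tested.

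Reads could be assigned to other genes for a few members. No 50-base window of the TAIR10.1 transcripts, read on either strand, was shared between any 2 of the 34. CIPK11 shared 98.17% of its windows with the overlapping gene AT2G30362, which had 14.58 to 52.35 FPKM in roots and 3.87 to 37.43 in shoots against 16.86 to 60.72 and 4.55 to 41.15 for CIPK11. The use of strand in the counting is not given in the sources used here, so the values of CIPK11 are uncertain. CIPK21 shared 12.69% with AT5G57565 and had fractional counts in all 24 libraries, but that gene held 41.6 to 67.91 counts in roots and 75.95 to 160.21 in shoots, against 547.74 to 1067.37 and 373.98 to 1637.05 for CIPK21. CIPK13 (AT2G34180) shared 39.03%, CIPK10 (AT5G58380) 6.47% and CIPK2 (AT5G07070) 3.78%.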

How the data were processed

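RNA was sequenced by the authors as single-end 50-base oligo(dT)-selected libraries on a BGISEQ-500. Per the submitters' processing notes and the study's methods, reads were aligned with HISAT and Bowtie to TAIR10 transcripts and quantified with RSEM, versions not given in the sources used here. The authors deposited, per sample, expected counts (estimated, not normalized) and FPKM values. A gene missing from a file was set to 0.

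Expected counts were rounded to whole numbers and tested with edgeR 4.0.16 (R 4.3.3; TMM, quasi-likelihood test, a minimum of 10 counts in 3 or more libraries, Benjamini-Hochberg over all genes, called at an adjusted p under 0.05). Fits used the 24 libraries for organ and the 12 of an organ for ploidy and NaCl; SE is the absolute log2 fold change divided by the root of F. DESeq2 1.42.0, limma 3.58.1 on log2(FPKM + 1), library-size scaling, no filter, a replicate block, a required fold of 2 and leaving out each library were the alternatives. Leaving out all replicate 3 libraries was added after seeing the data. The edgeR step was tested on simulated data with known folds.

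Replicates were pools of plants of 1 experiment, so p-values measure the spread between pools. Same-numbered shoot libraries deviated together from their group means (all 18 pairs over 0.1, 0.136 to 0.692), so the replicate number was read as a pairing of the shoot libraries, from the data and not from the labels. Root libraries were paired by number too, more weakly (15 of 18 pairs over 0.1). Root results from the fit without a block ignore that pairing. Counts limit precision: intervals cover counting error only.

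The 34 members and all lists were chosen with earlier results of these data known. Every member was named if called for ploidy or NaCl by edgeR without a block, or in shoots with it. Calls made in roots only with the block or by DESeq2 are given as counts. Members were also named if among the 5 largest organ changes each way, the 2 highest levels, listed at 0 in an organ, or a textbook transport regulator (CBL1, CBL9, CBL10, CIPK23, CIPK6). Neighbours, introns and shared windows come from the RefSeq annotation of TAIR10.1.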

Additional observations from a re-analysis of the deposited data

How the results depend on the processing

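The ploidy and NaCl calls made in roots without a block, and the 10 members named with the largest organ changes, kept their direction in every alternative run. The blocked shoot calls were not refitted with a library left out. Requiring a fold of 2 left 18 members for organ, 1 for NaCl in diploid roots, in neo-tetraploid roots and over both, and 0 for ploidy over both treatments. DESeq2 called 2 members for organ by NaCl (1833 of 21338 genes) and 2 for ploidy in control roots (804 of 20239). It called 3 for ploidy over both treatments of roots (1530 of 20239) and 2 for NaCl over both ploidies in shoots (2287 of 19174). Library-size scaling and limma each called 1 for organ by NaCl (982 of 21338 and 1779 of 21276 genes). Limma called 5 for NaCl over both ploidies of roots (4147 of 20036). With no filter 2 were called for ploidy over both treatments of roots (1006 of 25356). Without all replicate 3 libraries, 2 members were called for NaCl in diploid roots and 0 for ploidy over both treatments, and CIPK11 lost its organ call. The cause of these shifts was not tested.

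In roots 15 of 18 same-numbered pairs correlated over 0.1 (-0.032 to 0.399). All 12 root libraries correlated best with their own number on average. The root results above, except where a block is named, come from the fit without a block and so leave this pairing out. With the block more members were called in roots for ploidy and for NaCl. The replicate block called 2 of 32 members for organ by NaCl (CIPK9 and CIPK7), beside 2102 of all 21338 genes. For ploidy it called 3 of 31 members in control roots, 1 in NaCl roots and 6 over both treatments. Over all 20239 genes these counts were 1100, 356 and 2176. For NaCl it called 7 members in neo-tetraploid roots (2376 of all genes) and 12 over both ploidies (5186). In shoots it called 3, 1 and 5 of 27 members for NaCl in diploids, neo-tetraploids and both. Over all 19174 genes these counts were 1319, 314 and 3431, the last against 964 without the block. The block changed no other count of members by over 1.5 times.

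Leaving out each library in turn gave 29 to 30 organ calls, 0 to 1 for organ by NaCl, 0 to 2 for ploidy in control roots, 0 to 5 over both treatments, 2 to 6 for NaCl in diploid roots, 1 to 3 in neo-tetraploid roots, 4 to 9 over both, and 0 for the other comparisons. The shoot spread and the low counts of CBL5, CBL7, CBL8 and CIPK22 limit what could be detected.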
